A study of Coprinopsis cinerea with 7 samples.

Results

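The interior of chromosome 12 of Coprinopsis cinerea was taken as the 300 bp windows of that chromosome that start more than 20000 bp into it and stop at least 20000 bp before its last window ends. The rule uses position only, and 6860 of the 120537 windows of the series, and of the 6994 windows of chromosome 12, met it. They run from 20101 to 2078100 without a gap and cover 2058000 bp. A total of 6805 held at least 10 counts over the 4 columns of the primary table and were tested, and 55 were not.

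Coprinopsis cinerea is a mushroom-forming basidiomycete whose genome encodes many enzymes of the TET/JBP family, which oxidise the methyl group of 5-methylcytosine or, in trypanosomes, of thymine. Bisulfite converts the first oxidation product of 5-methylcytosine, 5-hydroxymethylcytosine, to cytosine 5-methylenesulfonate (CMS), and an antiserum to CMS then pulls down the fragments that carry it. In fungi, cytosine methylation is known mainly from repeats and transposons, and background of this kind says nothing of a given window here.

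Both groups were genomic DNA of oidia, the asexual spores of the fungus, with no treatment or mutant named in the labels. The anti-CMS immunoprecipitates (IP) comprised 5 libraries, 3 of one biological replicate and 2 of another, and the inputs 2 libraries, 1 for each biological replicate. The deposited tables hold 2 IP and 2 input columns, tagged 1_1 and B_1. No label carries these tags, so p-values measure the spread between 2 columns a group, which may be technical. CMS enrichment gives no level of modification per base, since a window's count also depends on its mappability and on how much of each fragment pool it yields.

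The 4 columns of the primary table held 106176723 (IP 1_1), 67181684 (IP B_1), 36059418 (input 1_1) and 36233140 (input B_1) counts. The interior of chromosome 12 took 5994419 and 3763710 of the IP counts and 2055289 and 2051152 of the input counts. Its median window held 776.5 counts in IP 1_1, 481 in IP B_1, 280 in input 1_1 and 287 in input B_1. As CPM (counts scaled to library size by trimmed mean of M-values, times 1000000), these medians were 7.62 and 7.60 in IP and 7.43 and 7.49 in input. Their closeness follows from the scaling, which sets the typical window to about the same level in every column, and with library totals the median log2 ratio of the interior was -0.14. The chromosome's interior made up 5.62% ± 0.0307 (SD, n = 2) of an IP column and 5.68% ± 0.0274 of an input column. An exact two-sided permutation test of these shares gave p = 0.333, the smallest value that 2 columns against 2 allow. In the second deposited table, named for multiple mapped and unique reads and called multi-mapped here, the share was 6.54% ± 0.122 in IP and 6.30% ± 0.0293 in input, again with p = 0.333 by the exact permutation test. The direction thus differed between the tables, and the test could not have reached the threshold in either.

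Across the 6860 windows, log2(CPM + 0.5) correlated at 0.974 between the IP columns and at 0.983 between the inputs, as a description of windows that share libraries and neighbours. Windows are not independent replicates. Their log2 ratios of IP over input correlated at 0.735 with those of the next window, 0.431 at a distance of 3 windows and 0.0927 at 100 windows, so the differences extended over runs of windows.

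With windows of 300 bp and the scaling used, a minority of the interior was called higher in IP. With edgeR's quasi-likelihood test and Benjamini-Hochberg adjustment over all windows of the series, 825 of the 6805 tested interior windows (12.1%) were higher in IP, where 8.75% of all tested windows were. The median window of the interior had a log2 ratio of 0.00 (quartiles -0.13 and 0.22), and the median of the windows called higher was 0.58, a 1.5-fold difference. At least 2-fold differences were found in 139 windows (2.04%), where the series had 1.80%, and at least 4-fold differences in 43 (0.632%), where the series had 0.632%. Only 45 windows (0.661%) were lower in IP, where 0.640% of all were, with a median ratio of 0.728. Leaving out 1 column at a time moved the number of higher windows: it was 1343 with IP 1_1 left out, 1179 with IP B_1 left out, 420 when input 1_1 was dropped and 329 when input B_1 was. With scaling by library totals, which moves the median log2 ratio of all windows from -0.01 to -0.16, 479 interior windows were higher and 431 lower, so the split of the calls depends on the scaling.

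The multi-mapped table gave 658 higher windows of 6860 (9.59%) in the interior, where 7.00% of all its windows were higher, and 54 lower ones (0.787%), where 0.816% were. Its input columns differed over the interior by no more than counting noise (chi-square per degree of freedom 0.943, against 1.94 for the primary inputs), and with them counted as 1 sample, an alternative added after the data were seen, 204 windows were higher. Both tables called 496 windows higher, which is 60.1% of the primary calls and 75.4% of the multi-mapped ones. Over the whole series the shared calls were 64.3% and 79.7%, so the overlap was no higher on this chromosome. All 825 windows called in the primary table had a log2 ratio above 0 in the multi-mapped table, with a median of 0.38. The same held for all 10457 windows called higher over the whole series, with a median of 0.39. Of the lower windows, both tables shared 17 (37.8% of the primary and 31.5% of the multi-mapped calls), where the series had 36.3% and 28.2%. The number of windows higher in both was 878 with IP 1_1 left out, 170 with input 1_1 left out and 143 with input B_1 left out. The tables may hold the same libraries, which no label states, and they were not taken as independent measurements. In the authors' deposited table of primary counts, 259 interior windows were higher in IP at their adjusted p, where 3.26% of all windows were, and 258 of them were among the 825. In the authors' deposited multi-mapped table, 337 interior windows were higher, where 3.21% of all were, and 201 of them were also called here. No interior window was lower in either of the authors' deposited tables. Over the whole series, 2 of 120306 windows were lower in the primary one and 0 of 120537 in the multi-mapped one.

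The enriched windows lay unevenly along the chromosome. In 40 bins of 50 kb, the median share of higher windows was 8.08%, yet 12 bins with at least 20% held 571 of the 825 (69.2%) in 29.1% of the windows. One block ran from 400201 to 700200, where 249 of 984 tested windows (25.3%) were higher, and another from 850201 to 1150200, where 257 of 988 (26.0%) were. The bins from 1900201 to 2000100 had 97 of 325 (29.8%) and the bin after them, from 2000101 to 2050200, 25 of 167 (15.0%). Between 1400101 and 1700100, 4 of 999 (0.400%) were higher. These limits were set from the shares themselves, and the shares varied within them, down to 9.38% in the bin from 950101 to 1000200. The bin from 1750201 to 1800000, outside the blocks, had 22.7%. The multi-mapped table called 200 windows in the first block, 195 in the second and 9 in the poor block.

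**Figure D1:**
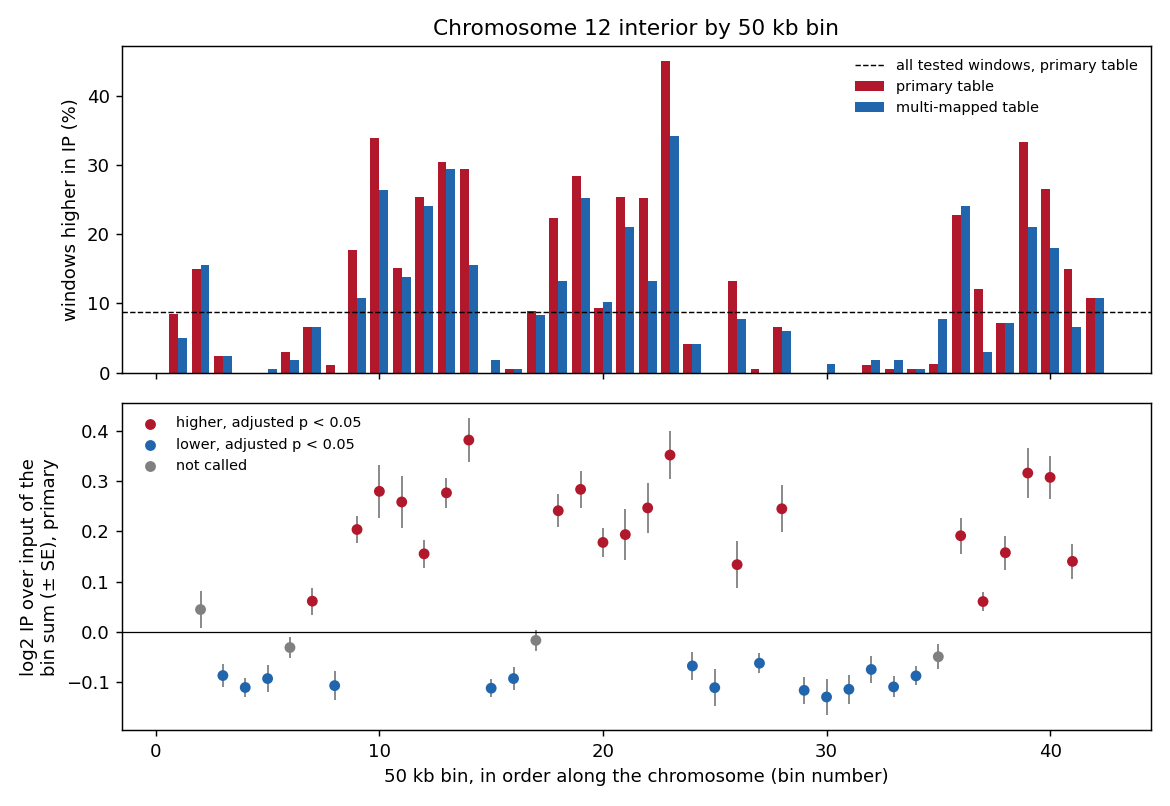
Upper panel, share of tested windows called higher in IP in each 50 kb bin of the chromosome 12 interior, primary (red) and multi-mapped (blue) tables, with the primary share over the whole series, 8.75%, as a line. Lower panel, log2 IP over input of the summed counts of each bin ± SE (primary table, edgeR); red bins were higher, blue bins lower and grey bins not called. The share ranges from 0 in 7 bins to 44.9% in bin 23, and the bins numbered 29 to 34 hold 4 higher windows between them.

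Summed over whole bins, 21 of 40 were higher in IP (52.5%), where 38.5% of all bins were, and 15 were lower, where 41.8% were, by the same edgeR test and adjustment. The multi-mapped table called 19 bins higher, where 32.6% of all were, and 14 lower, where 36.9% were, and 18 bins were higher in both. With library totals the split was 14 higher and 18 lower. Every bin difference was small. The bin from 650101 to 700200 had the highest ratio, with 1541 and 1712 CPM in IP and 1216 CPM in both inputs (log2 ratio 0.38 ± 0.04 SE, adjusted p = 3.64e-06, edgeR). The IP columns exceeded both inputs, and 9 of the 43 windows with a 4-fold difference lay in this bin.

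The bin from 1100101 to 1150200 had the highest share of higher windows, 75 of 167 (44.9%), and 34.1% in the multi-mapped table. Its summed level was 1808 and 1846 CPM in IP and 1437 and 1352 CPM in input (log2 ratio 0.35 ± 0.05, adjusted p = 1.78e-05, edgeR). Both IP columns were above both inputs. This bin was poor in genes, which covered 21.6% of its window midpoints, and 41.9% of its windows had a primary input below 50% of their multi-mapped input, a class described further on. The next bin in order, from 450001 to 500100, had 56 of 165 windows higher (33.9%), yet genes covered 69.5% of its midpoints and only 4.19% of its windows belonged to that class. Its level was 2084 and 2133 CPM in IP against 1714 and 1669 CPM in input, a 1.21-fold difference (adjusted p = 0.000353, edgeR). The bins from 1900201 to 1950000 (53 of 159, 33.3%) and from 600001 to 650100 (49 of 161, 30.4%) followed, with 1.24-fold and 1.21-fold differences. High shares thus occurred both in gene-poor and in gene-rich bins. As descriptions over the 40 bins, the share of higher windows correlated at -0.402 with gene cover. It correlated at 0.730 with the share of windows in the low-input class. The latter value is partly built in, since that class is set by the primary input. The part of gene cover or of that class in the calls was not tested.

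At the other end, 7 bins held 0 higher windows by edgeR. In their 1167 windows DESeq2 called 0 higher, 10 had an unadjusted edgeR p under 0.05 in that direction, 8 were called lower, and the multi-mapped table called 6 higher. The bin from 1450201 to 1500000 had the lowest ratio of the 4 named, with 1396 and 1302 CPM in IP and 1449 and 1423 CPM in input (log2 ratio -0.13 ± 0.04, adjusted p = 0.00595, edgeR). Both IP columns were below both inputs. The bins from 1400101 (-0.12 ± 0.03, adjusted p = 0.00175), 1500001 (-0.11 ± 0.03, adjusted p = 0.00283) and 1200001 (-0.11 ± 0.04, adjusted p = 0.0149) had nearly the same edgeR ratios.

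The longest stretch without a higher window ran from 1389901 to 1565700, over 175800 bp, 586 windows and 58 gene models. DESeq2 called 0 windows higher there, 6 had an unadjusted edgeR p under 0.05 in that direction, and the multi-mapped table called 3. Its median log2 ratio was -0.07, and 3 windows were lower. This stretch begins right after one of the sharpest enriched regions of the chromosome, which ends at 1389900. The next longest stretches, from 141301 to 274500 (133200 bp, 48 gene models) and from 690901 to 768000 (77100 bp, 28 gene models), had medians of -0.05 and -0.07. Gene cover in the 3 stretches was 55.5%, 59.2% and 63.8%, against 57.6% over the interior, so they were neither gene deserts nor unusually dense.

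Among the interiors of the 13 chromosomes, that of chromosome 12 ranked after those of chromosomes 6 (13.1%) and 9 (12.4%) in the share of windows called higher and ahead of chromosome 11 (11.4%). The other 12 interiors together had 8846 of 109844 higher (8.05%), so the share in chromosome 12 was 1.51 times theirs. In the multi-mapped table it was 1.46 times, and it was 1.38 times with library totals and 1.42 times without the low-input windows. The order differed in the multi-mapped table, with 10.9% for chromosome 9, 10.3% for chromosome 6 and 9.59% for chromosome 12. Chromosomes 13 and 11 followed there, each with 8.34%. No test of these shares was made, because windows are not independent. The share of windows with at least a 4-fold difference was 0.632% in chromosome 12 and 0.633% in the other interiors, so the excess in share lay in windows below that level. Genes covered 57.6% of its window midpoints, against 66.1% in the other interiors, and 9.64% of its windows were in the low-input class, against 5.55%. The low-input share was 15.0% in chromosome 6 and 9.68% in chromosome 10, and smaller than in chromosome 12 in each remaining interior. Chromosome 10 had 8.51% higher windows.

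**Figure D2:**
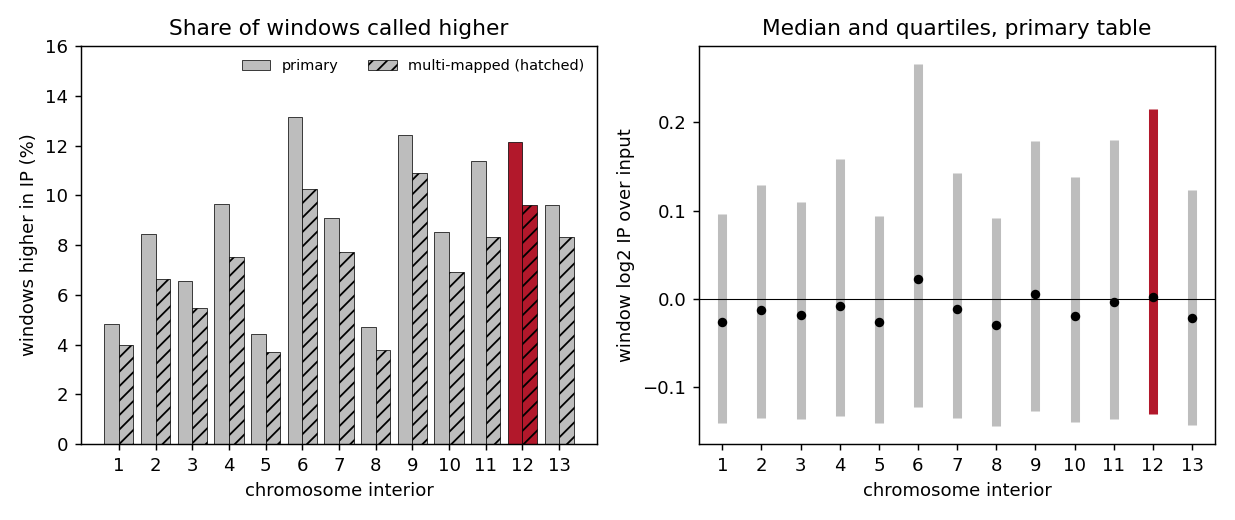
Left, share of tested windows called higher in IP in the interior of each chromosome, for the primary (plain) and multi-mapped (hatched) tables. Right, median (dot) and quartiles (bar) of the log2 IP over input of the windows, primary table. Chromosome 12, in red, has 12.1% higher windows and a median of 0.00, and it stands next to chromosomes 6, 9 and 11 in its share.

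Most enriched windows were clustered. Merging higher windows across gaps of at most 1 window gave 103 regions of at least 3 called windows. These held 658 of the 825 (79.8%). The same merging gave 1183 regions over the whole series, where the share of higher windows inside regions was not computed. The 103 regions had a median length of 1500 bp (range 900 to 10500 bp) and covered 211500 bp, 10.3% of the interior. Their summed levels were 1.33 to 7.88 times input with a median of 1.49, and 1.18 to 2.28 times with a median of 1.31 in the multi-mapped table. These folds are descriptions, since the regions were drawn from the calls. Of the 103 regions, 19 were at least 2-fold higher, 34 touched no gene model, and 90 held a window called in the multi-mapped table as well. Without input 1_1 there were 49 regions and without input B_1 37, and library totals gave 58.

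The longest regions were broad and shallow. The first, from 1031401 to 1041900, held 31 called windows of 35, of which the multi-mapped table called 24, and overlaps 6 gene models from CC1G_11467 to CC1G_11471. Its summed level was 629 and 695 CPM in IP and 406 and 407 CPM in input. The IP mean of 662 ± 46.1 CPM (SD, n = 2) was 1.63 times the input mean of 406 ± 0.699 CPM. Both IP columns lay well above the inputs, and the multi-mapped fold was 1.33.

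The second, from 75901 to 82800, held 22 called windows of 23 and overlaps CC1G_15371 and CC1G_15372. Its level was 367 and 419.5 CPM in IP and 251 and 242 CPM in input, a 1.60-fold difference. The third, from 479701 to 485700 over CC1G_11254 to CC1G_11256, had 329 and 331 CPM in IP and 240.4 and 232 CPM in input, a 1.39-fold difference. The IP columns were nearly equal here, and in both regions they exceeded both inputs.

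Regions from 590701 to 595200 (1.45-fold, over CC1G_08442 to CC1G_08444), 941101 to 945300 (1.47-fold, CC1G_10800 to CC1G_10802), 1795801 to 1800000 (1.46-fold, CC1G_15464 and CC1G_07775) and 1782301 to 1786200 (1.46-fold, CC1G_07769 to CC1G_07771) were alike in height. Each overlapped at least 2 gene models, and their multi-mapped folds lay between 1.25 and 1.34. The gene table gives no product for any of these models, so their roles are not given here.

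One of the 8 longest regions differed from the rest. From 655801 to 660300, where no gene model lies, 14 of 15 windows were called, with 148 and 192 CPM in IP and 47.5 and 45.5 CPM in input. The fold was 3.65 in the primary table and 1.36 in the multi-mapped table, where the levels were 470.3 and 581 CPM in IP and 391 and 380.2 CPM in input and only 2 windows were called. All 15 windows had a primary input under 50% of their multi-mapped input, so the height of this region depended on the table. The part that read assignment has in it was not tested.

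**Figure D3:**
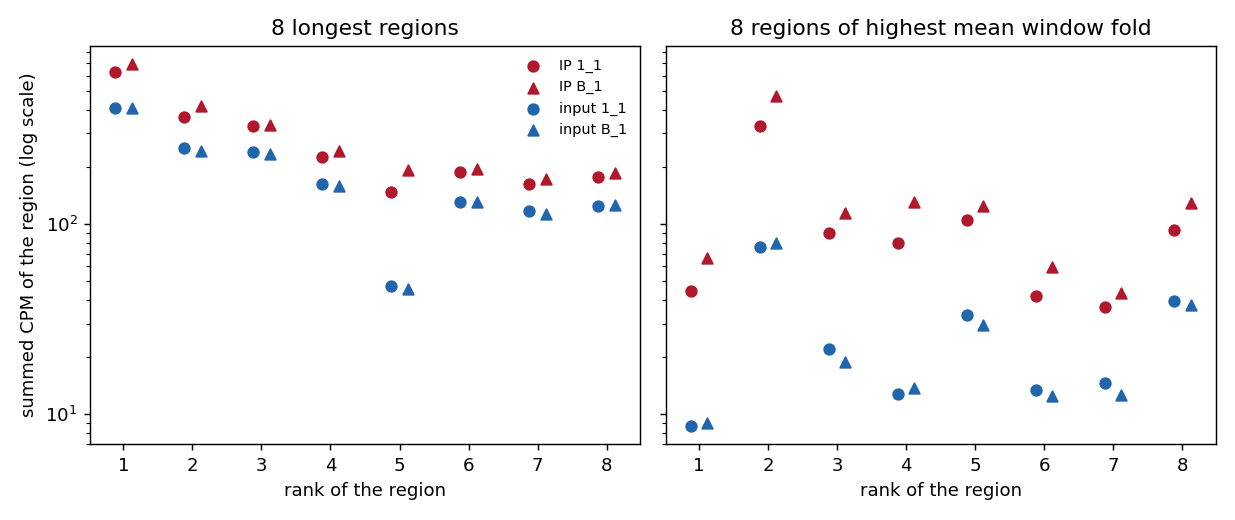
Summed CPM (log scale) of the 8 longest regions (left) and the 8 regions with the highest mean window log2 ratio (right), primary table. Each IP column (red) and input column (blue) has its own point, and marker shape separates the column tags. The longest regions have IP points a little above the inputs, apart from rank 5, from 655801 to 660300, while the highest ones are separated by 2.87-fold to 7.88-fold.

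The 8 highest regions were 900 to 3000 bp long, and 5 of them touched no gene model. The highest by mean window ratio, from 1906801 to 1907700, consisted of 3 windows over CC1G_15472 and CC1G_12604. Its level was 44.4 and 66.0 CPM in IP and 8.68 and 9.06 CPM in input (55.2 ± 15.3 against 8.87 ± 0.266 CPM, a 6.22-fold difference). The next, from 1386901 to 1389900 over CC1G_06498, had all 10 of its windows called in both tables, with 327 and 471 CPM in IP and 76.2 and 79.5 CPM in input (399 ± 101 against 77.9 ± 2.36 CPM, 5.12-fold). None of the windows of these regions was in the low-input class, and their multi-mapped folds, 2.28 and 2.25, were the highest among the 8.

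The region from 414001 to 415200 had 89.4 and 115 CPM in IP and 22.0 and 18.9 CPM in input, a 4.98-fold difference, with 3 of its 4 windows in the low-input class. The region from 957001 to 958800 had 79.3 and 131 CPM in IP and 12.8 and 13.8 CPM in input, a 7.88-fold difference, with 5 of 6 windows in that class. Their multi-mapped folds were 1.54 and 1.63. Both touch no gene model, and in both IP B_1 was higher than IP 1_1.

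Of the other sharp regions, those from 2031901 to 2032800 (3.92-fold), 2038501 to 2040000 (3.67-fold) and 1805101 to 1807800 (2.87-fold) touch no gene model, and the one from 609301 to 612000 (2.95-fold) overlaps CC1G_15404 and CC1G_15405. Between 2 and 8 windows of each were in the low-input class. The multi-mapped folds of these regions were 1.43 to 1.83.

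The 8 windows with the largest differences each exceeded the fold of any whole region. The window at 656101-656400, between CC1G_08466 and CC1G_08470, held 3093 (IP 1_1) and 2887 (IP B_1) counts after precipitation, where input 1_1 had 81 and input B_1 had 69. Its CPM was 30.3 and 45.6 in IP and 2.15 and 1.80 in input, a log2 ratio of 4.26 ± 0.22 (SE, adjusted p = 1.37e-07, edgeR) and a 19.2-fold difference. In the multi-mapped table the same window held 649 and 615 counts in IP and 590 and 515 in input, a 1.53-fold difference (adjusted p = 0.0120, edgeR). The IP columns stood above the inputs in both tables, but the input was far lower in the primary table.

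Its neighbours followed the same course. The window at 656401-656700 was 16.2-fold higher in the primary table, with a multi-mapped log2 ratio of 0.62 (adjusted p = 0.0474, edgeR). That at 656701-657000, with only 419 and 282 IP counts and 18 and 16 input counts, was 9.51-fold higher. It was not called in the multi-mapped table, where it held 822 and 775 counts in IP and 790 and 753 in input (log2 ratio 0.47, adjusted p = 0.183, edgeR).

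The pair of windows from 957001 to 957600, between CC1G_10805 and CC1G_11587, stayed high in both tables. The first held 2946 and 3203 counts in IP and 80 and 101 in input (log2 ratio 4.06 ± 0.25, adjusted p = 3.22e-07, edgeR), and was 16.6-fold higher in the primary table and 2.49-fold in the multi-mapped one. The other held 3583 and 3982 counts in IP and 107 and 142 in input, and the folds were 14.9 and 2.70. The window at 1907101-1907400, in CC1G_12604, held 1831 and 1645 counts in IP and 90 and 95 in input. It had the highest multi-mapped fold of the 8 named windows, 2.93 (adjusted p = 6.98e-25, edgeR), beside 8.99 in the primary table. The windows at 414901-415200 (10.5-fold, 1.5-fold in the multi-mapped table) and 2039101-2039400 (8.12-fold and 1.72-fold) completed the 8.

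Lower windows were few and shallow. Of the 45, 41 had their midpoint in a gene model, as did 597 of the 705 in the other interiors, where genes also cover most windows. The lowest, at 2028901-2029200 in CC1G_10255, had 2.19 and 2.18 CPM in IP and 4.01 and 3.37 CPM in input (log2 ratio -0.75 ± 0.17, adjusted p = 0.0132, edgeR; -0.55 and adjusted p = 0.0126 in the multi-mapped table). The window at 43501-43800 in CC1G_10472 had 4.80 and 5.12 CPM in IP and 7.43 and 7.12 CPM in input (-0.56 ± 0.12, adjusted p = 0.0101, edgeR) and was lower in both tables. So was that at 162601-162900 in CC1G_05786 (-0.55 ± 0.14, adjusted p = 0.0200, edgeR). The IP columns of all 3 were below both inputs.

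The window at 650701-651000 in CC1G_08465 was lower in the primary table (-0.65 ± 0.16, adjusted p = 0.0206, edgeR), with -0.31 and adjusted p = 0.145 in the multi-mapped one. The window at 2013901-2014200, outside genes, was lower in the primary table (-0.54 ± 0.15, adjusted p = 0.0390, edgeR) and had 0.03 in the multi-mapped one. Without input 1_1 none of the 5 named lower windows kept its call, the edgeR adjusted p being 0.0859 to 0.641. Over the whole interior 4 lower windows were called without input 1_1, 10 without input B_1, 652 without IP 1_1 and 290 without IP B_1.

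Neighbouring lower windows formed 7 groups of at least 2, the lowest of which was 900 bp long. It ran from 85501 to 86400 in CC1G_10492, with 34.3 and 29.4 CPM in IP and 48.7 and 42.0 CPM in input, a ratio of 0.702. In CC1G_10472, from 43501 to 44100, the level was 12.4 and 13 CPM in IP and 18.6 and 17.4 CPM in input (ratio 0.705), and both windows were also lower in the multi-mapped table. The others named, in CC1G_08465, CC1G_15410 and CC1G_15453, had ratios of 0.709, 0.729 and 0.733. Each of the 5 had both IP columns below both inputs. Lower windows with at least a 2-fold difference numbered 0 by edgeR, 0 at an unadjusted edgeR p under 0.05 and 0 by DESeq2.

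By gene model, 116 of 690 tested genes of the interior were higher in IP (16.8%), where 11.2% of all genes were, and 3 were lower (0.435%), where 0.544% were, with edgeR's quasi-likelihood test and Benjamini-Hochberg adjustment over all genes. The multi-mapped table gave 118 higher genes (17.1%), where 11.1% of all were, and 4 lower ones, where 0.611% were, and 108 were higher in both tables (93.1% and 91.5% of the lists). The gene calls of the interior were thus shared more fully between tables than its window calls. The same overlap over all genes was not computed, so this is not shown to be particular to chromosome 12. The median called gene was 1.38-fold higher, and 12 genes were at least 2-fold higher, where 1.47% of all genes were. The median log2 ratio over the tested genes of the interior was -0.00, against -0.01 for all genes.

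The gene with the highest ratio was CC1G_15404, whose 13 windows held 17.6 and 19.7 CPM in IP and 5.79 and 4.93 CPM in input (log2 ratio 1.82 ± 0.12, adjusted p = 1.19e-05, edgeR). CC1G_12604, over 3 windows, had 28.1 and 36.9 CPM in IP and 9.77 and 9.73 CPM in input (1.76 ± 0.13, adjusted p = 1.93e-05, edgeR). CC1G_06498, over 14 windows, had 326 and 433 CPM in IP and 121 and 124 CPM in input (1.66 ± 0.12, adjusted p = 1.21e-05, edgeR). In these genes each IP column was at least 2 times either input. CC1G_15407 and CC1G_11775 (both 3.07-fold), CC1G_11776 (3.01-fold), CC1G_10238 (2.91-fold), CC1G_11467 (2.73-fold), CC1G_07806 (2.47-fold) and CC1G_08482 (2.12-fold) followed. In the multi-mapped table all 10 were called higher as well, with log2 ratios of 0.62 to 0.90.

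Of the 116 higher genes, 88 (75.9%) lay in 16 runs of at least 3 adjacent higher genes. The same share over all genes was not computed, so the runs are not shown to be particular to this chromosome. The longest run comprised 13 genes from CC1G_15480 to CC1G_10238, between 1949101 and 1991100, with log2 ratios of 0.34 to 1.54 and a median of 0.40, and the multi-mapped table called all 13. Runs of 7 genes began at CC1G_11250, CC1G_11467, CC1G_07770 and CC1G_10211, with medians of 0.43, 0.57, 0.49 and 0.41. All members of the first 3 of these, and 5 of 7 in the last, were higher in the multi-mapped table. Adjacent genes share fragments and local coverage and are not independent.

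The 3 lower genes were close to the threshold. CC1G_10492 had 99.7 and 84.9 CPM in IP and 121 and 112 CPM in input (log2 ratio -0.30 ± 0.08, adjusted p = 0.0336, edgeR). CC1G_15453 had 24.3 and 23.7 CPM in IP and 29.8 and 30.6 CPM in input (-0.30 ± 0.07, adjusted p = 0.0239, edgeR). CC1G_10499 (-0.28 ± 0.08, adjusted p = 0.0399, edgeR) was also lower in the multi-mapped table (-0.24, adjusted p = 0.0319, edgeR). None kept its call without input 1_1 (edgeR adjusted p of 0.126, 0.151 and 0.454), and the number of lower genes of the interior was 5 without input B_1, 13 without IP B_1 and 83 without IP 1_1. With library totals, 77 genes were lower.

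Of the 14 tRNA genes of chromosome 12, whose products carry amino acids to the ribosome, 4 held the midpoint of a window. None passed the edgeR test in either table or DESeq2 in the primary one, and 2 had an unadjusted edgeR p under 0.05. Their log2 ratios were -0.56 ± 0.19 (CC1G_20203, adjusted p = 0.115, edgeR), 0.28 ± 0.17 (CC1G_20204), 0.37 ± 0.16 (CC1G_20205, adjusted p = 0.241, edgeR) and -0.32 ± 0.18 (CC1G_20206). The 4 values fell on both sides of 0.

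Higher windows were more frequent outside gene models than inside. With the midpoint as the rule, 450 of 2878 tested windows outside genes were higher (15.6%) and 375 of 3927 inside (9.55%), a ratio of 1.64. In the other interiors the shares were 12.5% and 5.76%, a ratio of 2.18, so chromosome 12 exceeded them by a larger factor inside genes than outside. In the multi-mapped table the chromosome 12 shares were 11.1% outside and 8.46% inside, a ratio of 1.32. Of the windows outside genes, 19.6% were in the low-input class, against 2.25% of those inside, and without that class the ratio was 1.19. Windows with a 4-fold difference numbered 28 outside and 15 inside.

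The share of higher windows was larger at greater distance from the nearest gene model. It was 9.12% of 1140 windows at 1 to 300 bp, 11.3% of 921 at 301 to 1000 bp, 24.8% of 339 at 1001 to 2000 bp, 32.9% of 289 at 2001 to 4000 bp and 33.3% of 189 beyond that. In the multi-mapped table the shares were 9.11%, 10.7%, 13.8%, 16.2% and 12.5%, a flatter course that turned down in the last class. The most distant class held 63 higher windows in the primary table but 0 with a 4-fold difference, and 141 windows of it were in the low-input class. In the other interiors the primary shares were 8.10%, 11.2%, 18.9%, 29.3% and 33.6%.

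**Figure D4:**
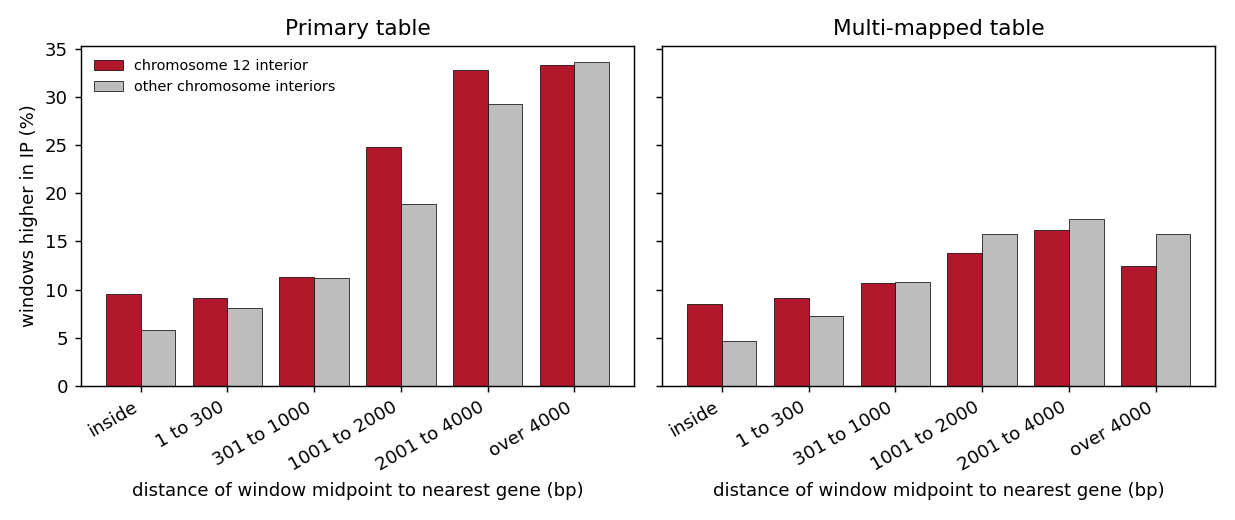
Share of windows called higher in IP by the distance of the window's midpoint from the nearest gene model, in the interior of chromosome 12 and in the other interiors, for the primary and multi-mapped tables. In chromosome 12 the primary share goes from 9.55% inside genes to 33.3% in the most distant class, and the multi-mapped share stays at or below 16.2%.

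The tables also differed in the input level of some windows. In 661 interior windows (9.64%), the primary input CPM per library total was under 50% of the multi-mapped one, a class set after the data were seen. The class uses the primary input, which is also the denominator of the primary ratio. A raised primary share, high primary folds and a lack of lower windows are thus partly built in. Their median summed input was 160 counts in the primary table and 1255 in the multi-mapped table, against 595 and 422 counts in the other 6199 windows. Of the 606 tested, 209 were higher in IP (34.5%), 59 of them at least 2-fold and 19 at least 4-fold. In the rest of the interior 616 windows were higher (9.94%), 80 at least 2-fold and 24 at least 4-fold. The low-input class thus made up 25.3% of the higher windows and 44.2% of those with a 4-fold difference. In the other interiors it made up 17.0% and 26.8% of them. In chromosome 12, 13.5% of the class had its midpoint in a gene, against 62.3% of the rest.

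The multi-mapped table, in which these windows were well covered, called 166 of the 661 higher (25.1%) and 492 of the others (7.94%). The median log2 ratio of the class was 0.46 in the primary table and 0.39 in the multi-mapped table, with quartiles of 0.34 and 0.45 in the latter. That of the other windows was -0.02 in both. The class was therefore higher in IP than the rest in either table. The 43 interior windows with a primary 4-fold difference, 19 of them in the class, had a median multi-mapped log2 ratio of 0.96. By edgeR 0 windows of the class were lower, 1 at an unadjusted p under 0.05, and 0 by DESeq2. In the other interiors 28.7% of the class and 7.02% of the other windows were higher.

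**Figure D5:**
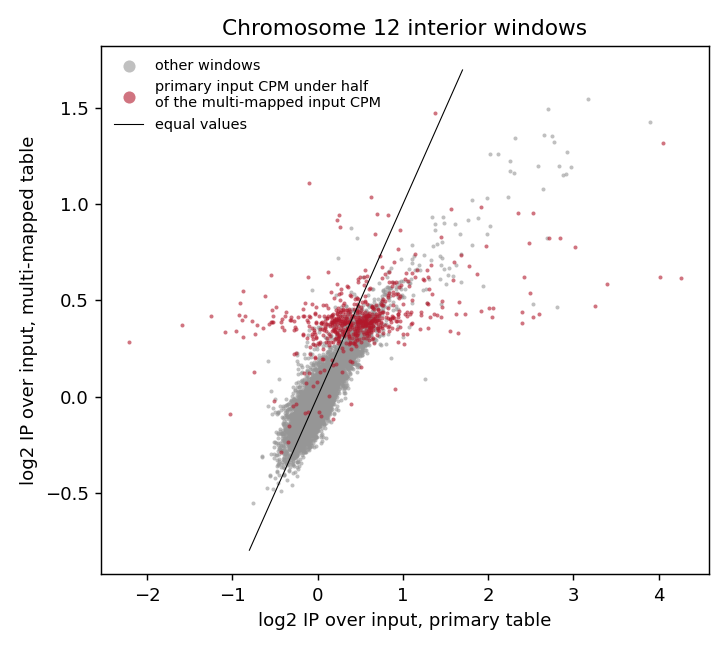
Log2 IP over input of each tested interior window of chromosome 12 in the primary table (horizontal) and the multi-mapped table (vertical), with the windows whose primary input CPM was under 50% of the multi-mapped one in red. Windows to the right of the line have a larger ratio in the primary table, and the correlation over the 6805 windows was 0.809.

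The IP columns were not equally high in enriched windows. IP B_1 exceeded IP 1_1 in CPM in 652 of the 825 higher windows (79.0%), in all 43 with a 4-fold difference, and in 93 of the 103 regions. The share in the other interiors was 78.7%. With 1 column each and no label for the tags, the spread between the IP columns cannot be told apart from a difference in enrichment between immunoprecipitates.

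Windows outside the tested range of the primary table were not empty in the other. The 55 untested windows had a median summed input of 959 counts (range 274 to 1843) in the multi-mapped table, against 439 for the tested windows, and 20 of the 55 were called higher there. In 8 of them the primary table held no count in any column. At the opposite extreme, the most covered window, at 1262101-1262400, held 6483 and 3786 counts in IP and 1872 and 1879 in input. Its summed input was 6.59 times the interior's median of 569, and it was not called (log2 ratio 0.32, adjusted p = 0.292, edgeR). The 2 windows after it were not called either, with 0.43 and 0.53, and the window at 534001-534300, with 5939 and 3904 counts in IP and 1282 and 1191 in input, was higher (0.88, adjusted p = 0.00255, edgeR). Of the 5 windows with the most input, that 1 was higher in IP.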

How the data were processed

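DNA of oidia was isolated by a kit for plant tissue and sequenced as Illumina libraries, as the labels' protocols state. Per the submitters' processing notes, the tools were Bismark 0.6.4, Bowtie 0.12.7 and edgeR, whose roles are not named. For genome build, duplicate removal and read extension no value is stated in the labels, notes or headers. Window counts come in 2 tables deposited by the authors at 300 bp steps, with 4 count columns each and library totals of 106176723, 67181684, 36059418 and 36233140 (primary) and 24990768, 19994333, 28735765 and 27600179 (multi-mapped). How reads that map to several places were assigned in the second table is likewise not stated. The authors' deposited log2 fold changes (input over IP) and adjusted p-values were used only to count their calls. Another 8 per-sample columns were not used. In the multi-mapped table, columns without the word input were taken as IP. No source used here says how 7 libraries became 4 columns.

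Windows were tested with edgeR 4.0.16 (R 4.3.3) over the whole table: scaling by trimmed mean of M-values, at least 10 counts in total, a quasi-likelihood test of 2 IP against 2 input columns, and a Benjamini-Hochberg adjusted p under 0.05. The scripts were tested on simulated data. Standard errors come from the F statistic. CPM used scaled library sizes. Genes and 50 kb bins were tested on the sums of their windows. Gene models came from a RefSeq table of assembly CC3 with locus tags only and no products, so lists by product could not be formed. On chromosome 12, input counts followed gene cover best with no shift (r = 0.253, against at most 0.103 at shifts beyond 10 windows), so the positions were used for overlap only. Named were the 8 longest and 8 highest regions, the 8 highest and 5 lowest windows that reached 50 counts and moved the same way in all columns, the 5 lowest groups of lower windows, the 10 highest and up to 5 lowest genes, the 4 highest and 4 lowest bins (7 tied at 0 higher windows, of which 4 are given), the 3 longest stretches without calls and the 5 windows with the most input. The members, lists and tests were chosen with earlier results of these data known. Alternatives were library totals, DESeq2 1.42.0 size factors and its Wald test, other count minimums, thresholds, bins, gaps and edges, a replicate block, and each column left out. The tags 1_1 and B_1 are not tied to biological replicates by any label. The correlation of same-tag deviations was 0.206 over all primary windows, with 2 pairs only, so the tag was not taken as a pairing.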

Additional observations from a re-analysis of the deposited data

How the results depend on the processing

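Each group had 2 columns. With library totals the interior had 479 higher and 431 lower windows (825 and 45 as reported), 58 regions (103), 270 windows higher in both tables (496) and 77 lower genes (3), and the ratio to the other interiors was 1.38 (1.51). At an adjusted p under 0.01 there were 439 higher windows, 54 regions, 252 shared windows, 0 lower windows (DESeq2 0, 425 at an unadjusted p under 0.05) and 0 lower genes (DESeq2 1, 41 unadjusted). At 2-fold or more there were 139 higher windows, 19 regions, 23 shared windows, 12 higher genes and 0 lower windows, lower genes, higher bins or lower bins by edgeR. DESeq2's Wald test gave 13 lower windows, 300 shared windows and 8 lower bins. With the inputs of the multi-mapped table counted as 1 sample, an alternative added after seeing the data, 204 windows were higher there.

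With the tag as a replicate block there were 285 lower windows, 31 lower genes, 1219 higher windows, 115 regions, 528 shared windows, 138 higher genes and 21 higher bins; the tag is only a shared number.

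Leaving out 1 column each gave 329 to 1343 higher and 4 to 652 lower windows, 37 to 126 regions, 143 to 878 shared windows, 101 to 145 higher and 0 to 83 lower genes, 16 to 21 higher and 11 to 16 lower bins. A lone column was assumed to vary like the other group. Merging across 5 windows gave 65 regions. Bins of 25 kb gave 35 higher and 9 lower, bins of 100 kb 9 and 7. The ratio outside over inside genes (1.64) was 1.32 in the multi-mapped table and 1.19 without the low-input windows. The window at 2013901-2014200 changed sign in the multi-mapped table (0.031). The causes were not tested. The counts that follow are over 37 items: the named windows and genes, with the window of highest ratio in each named region added. The named windows and genes kept direction and call under library totals, DESeq2 size factors, other count minimums, the block and without either IP column; 8 lost the call without input 1_1, 7 without input B_1, 1 with the Wald test and 5 in the multi-mapped table besides the window that changed sign there.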
